A study of Homo sapiens with 44 samples.

Results

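The BCL2 family decides whether a cell opens its mitochondria and dies. Members were taken by gene symbol: BCL2, BCL2L1, MCL1, BAX, BAK1, BBC3, BCL2L11, BMF, PMAIP1 and BID, 10 of the 23368 genes in the deposited count table. No cutoff on a measured value was used, but the choice was made with earlier results of these data known. RNA had been sequenced from 44 tumors of VCaP, an established human line from a prostate cancer metastasis, grown in athymic nude mice of the strain HSD:Athymic Nude-Foxn1nu. The tested arms were enzalutamide (14 mice) and ARN-509, also called apalutamide (15 mice), both antagonists of the androgen receptor, given by gavage once a day at 20 mg/kg/day for 4 weeks. They were set against vehicle, by the same route (15 mice). Every mouse of all 3 arms had been castrated and was treated once its serum PSA had returned to where it stood earlier, so vehicle tumors too had already grown back without testicular androgen. All tumors come from 1 cell line, and nude mice lack T cells but keep other immune cells. Animal ages were not given in the sources used here.

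The family works through 3 kinds of protein. Anti-apoptotic members (BCL2, BCL-XL from BCL2L1, and MCL1) hold the effectors BAX and BAK in check, and these effectors, once freed, perforate the outer mitochondrial membrane and release cytochrome c. BH3-only members (PUMA from BBC3, BIM from BCL2L11, BMF, NOXA from PMAIP1, and BID) sense stress and tip the balance toward death. Loss of androgen signaling is a classical trigger of apoptosis in the prostate, and the family's transcripts were compared here after the tumors had been exposed to a drug for 4 weeks.

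The fit used 43 libraries, since enzalutamide 4 held 80142 counts in all and is left out by the rule for the members. That library had 26 BCL2L1 counts and 4 MCL1 counts, an order opposite to that of every other tumor. The rest held 4723513 to 16903189 counts with enzalutamide, 3377450 to 30125004 with ARN-509 and 4187464 to 25849380 with vehicle. Vehicle 8 and vehicle 10 correlated least with the rest of their arm (r = 0.889 and 0.916). All 11 listed VCaP and prostate epithelial markers were detected and passed the filter, with a median summed level of 16362, 16111 and 11422 CPM (counts scaled to the effective size of each library) in enzalutamide, ARN-509 and vehicle tumors. Markers of other cell types, counted by human gene symbol, were low beside these. How mouse reads were handled was not given, so such markers do not measure how much mouse tissue a tumor held. The summed level of 6 endothelial markers was 0.926 to 3.36, 0.607 to 2.72 and 2.66 to 7.38 CPM in the same order of arms. Summed levels of 9 fibroblast markers were 4.76 to 12.6, 4.93 to 17.9 and 6.59 to 25.0 CPM, and of 7 leukocyte markers 4.51 to 9.62, 4.57 to 11.2 and 4.08 to 10.4 CPM. The 4 erythrocyte markers summed to a median of 1.11, 1.16 and 1.06 CPM. PTPRC, the pan-leukocyte marker, had 4 counts over all tumors, CD163 had none with enzalutamide, and no other listed marker was at 0 throughout an arm. The part of such cells in the results on low genes was not tested. Of 3 androgen-dependent genes, 2 were lower with both drugs: STEAP4, a metalloreductase gene, had a log2 fold change of -4.23 with enzalutamide and -3.74 with ARN-509, and FKBP5, a chaperone gene and receptor target, -0.44 and -0.59 (edgeR adjusted p at most 0.00574). KLK3, the gene of PSA, passed with ARN-509 (-0.61, adjusted p = 0.0243) and not with enzalutamide (-0.17, adjusted p = 0.697), and the drug difference did not pass (adjusted p = 0.116). The ARN-509 value of KLK3 was -0.38 without vehicle 8 (adjusted p = 0.104) and -0.40 with the GC trend of the libraries taken out (adjusted p = 0.1).

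With ARN-509, 5 of the 8 tested members differed from vehicle: BMF, BCL2L11 and BID rose, and BCL2L1 and BAX fell. That is 62.5% of the tested members, beside 30.8% of all 13520 genes tested (14.7% rose and 16.1% fell). With enzalutamide only BID passed, 1 of 8 or 12.5%, beside 10.8% of all genes (5.1% rose, 5.67% fell), a share near that of all genes. Between the drugs 2 of 8 members differed, 25% beside 26.8% of all genes, which is also near the background. Once the GC trend was taken out, 2 of 8 members were called with ARN-509, beside 3395 of 12034 genes, a share not above background. All changes were small. The largest among the tested members was 0.39 on the log2 scale (BMF with ARN-509), whereas 194 genes changed at least 2-fold with that drug. The median absolute log2 change of the members was 0.11 with enzalutamide and 0.19 with ARN-509, beside 0.11 and 0.17 over all tested genes. BCL2 and PMAIP1, 2 of the 10 members, had too few counts to pass the filter on low counts. Calls are edgeR quasi-likelihood tests with Benjamini-Hochberg adjusted p below 0.05 over all tested genes. Both drug comparisons share the vehicle tumors. RNA came from whole tumors, so fewer cells of a type and less RNA per cell cannot be told apart.

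**Figure D1:**
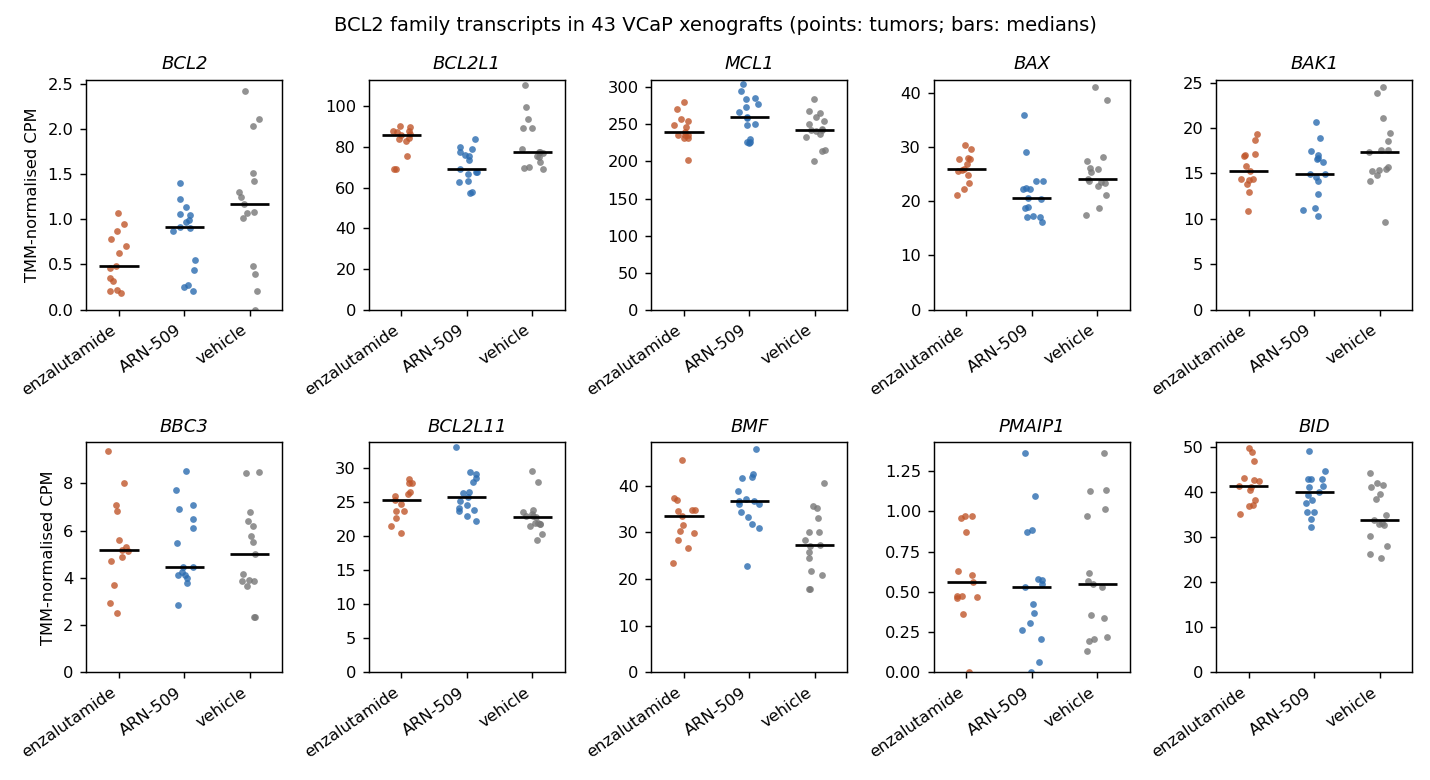
TMM-normalised CPM (vertical axis, from 0, a scale of its own in each panel) of the 10 members in each of 43 tumors, with enzalutamide (13), ARN-509 (15) and vehicle (15) from left to right. Points are tumors and bars are medians. All 13 enzalutamide tumors lay above the vehicle median for BID, and 14 of 15 ARN-509 tumors did so for BID, BMF and BCL2L11.

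Per kilobase of exon, MCL1 was the most abundant member with a mean of 61.1 CPM per kb over the 43 tumors, ahead of BCL2L1 at 27.4. BAX followed at 17.3, BID at 13.8, BAK1 at 7.24, BMF at 6.59, BCL2L11 at 4.05 and BBC3 at 2.54. PMAIP1 at 0.279 and BCL2 at 0.0732 CPM per kb were barely detected. Thus, among the 10 members, the anti-apoptotic transcripts were MCL1 and BCL2L1 and hardly BCL2, and those of effector and BH3-only members lay between. Family genes outside the 10 members have no place in this order. Among them are the anti-apoptotic BCL2L2 and the BH3-only BAD, whose CPM are given below. Neighbours in this order overlapped across tumors in some cases: BAK1 ranged over 4.37 to 11.1 CPM per kb and BMF over 3.65 to 9.73. MCL1 at 49.0 to 74.7 and BCL2L1 at 20.1 to 38.6 CPM per kb did not overlap. Lengths are unions of annotated exons, so a gene that uses few of its exons is understated.

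Promoter windows of 3 members that changed with ARN-509, from RefSeq on GRCh38.p14, are printed to show which letters of 3 known binding motifs they hold: BMF and BCL2L11, which rose, and BAX, which fell. Each runs from 250 bases before to 50 after an annotated start of the gene, 5′ to 3′ on the strand of the gene, and capitals mark a motif match on either strand.
BMF promoter, chr15:40108830-40109129 (- strand): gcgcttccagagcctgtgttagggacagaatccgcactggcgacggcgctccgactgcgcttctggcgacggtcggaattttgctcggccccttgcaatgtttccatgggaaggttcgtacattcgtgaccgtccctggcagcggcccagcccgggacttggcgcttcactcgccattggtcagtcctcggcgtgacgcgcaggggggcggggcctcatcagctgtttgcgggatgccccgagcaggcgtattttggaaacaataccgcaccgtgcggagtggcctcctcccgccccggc
BCL2L11 promoter, chr2:111120664-111120963 (+ strand): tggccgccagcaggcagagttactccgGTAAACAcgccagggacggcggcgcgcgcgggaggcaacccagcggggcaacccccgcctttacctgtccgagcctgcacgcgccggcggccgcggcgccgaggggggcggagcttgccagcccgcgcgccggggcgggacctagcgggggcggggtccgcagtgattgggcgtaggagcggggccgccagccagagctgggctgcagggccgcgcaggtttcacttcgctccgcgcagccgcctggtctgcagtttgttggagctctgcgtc
BAX promoter, chr19:48954625-48954924 (+ strand): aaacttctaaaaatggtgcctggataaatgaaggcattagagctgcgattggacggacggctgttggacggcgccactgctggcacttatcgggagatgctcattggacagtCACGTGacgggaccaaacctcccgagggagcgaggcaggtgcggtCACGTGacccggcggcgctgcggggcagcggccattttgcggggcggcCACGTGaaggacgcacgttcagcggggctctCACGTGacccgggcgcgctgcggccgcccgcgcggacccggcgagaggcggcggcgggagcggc
The FOXO core GTAAACA, the letters that forkhead factors of the FOXO class read, occurred in 1 of the 15 windows of the 9 members with an entry. It stands in BCL2L11, where it starts at position -223 from the gene start, and 3.42% of all 35116 promoter windows hold it. BMF held none of the 3 motifs in this window. CACGTG, the E-box letters read by MYC and related factors, occurred 4 times in the BAX window, and in windows of BBC3 and BID. It is in 7.26% of all windows. The androgen receptor half-site letters AGAACA were in 0 of the 15 windows, beside 14.8% of all windows. MCL1 had no entry in the table. A match is a description of letters and not a bound site, and the motifs do not overlap.

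Among the anti-apoptotic genes, BCL2L1 was lower with ARN-509 and not with enzalutamide. The lowest, median and highest BCL2L1 values were 69.1, 85.8 and 90.5 CPM in enzalutamide tumors, 57.5, 69.4 and 84.2 CPM in ARN-509 tumors and 69.1, 77.6 and 110 CPM in vehicle tumors. The ranges overlapped, but 7 of 15 ARN-509 tumors lay below the lowest vehicle tumor and 8 of 13 enzalutamide tumors lay above the highest ARN-509 tumor. The log2 fold change of BCL2L1 was -0.21 ± 0.06 with ARN-509 (SE, edgeR adjusted p = 0.0123), a ratio of 0.864. With enzalutamide it was 0.02 ± 0.07 (adjusted p = 0.876). Its difference between the drugs was 0.23 ± 0.07, higher with enzalutamide (adjusted p = 0.0113). With enzalutamide 4 put back, the adjusted p was 0.15 for ARN-509 and 0.0543 for the drug difference.

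MCL1, the short-lived member that many tumor cells depend on, did not pass in any comparison. Its lowest, median and highest values were 201.8, 239.5 and 279.8 CPM in enzalutamide tumors, 225, 260 and 305 CPM in ARN-509 tumors and 200.1, 243 and 284 CPM in vehicle tumors. The arms overlapped almost wholly, with 11 of 15 ARN-509 tumors above the vehicle median and 3 above the highest vehicle tumor. The log2 fold change was 0.00 with enzalutamide (95% interval -0.11 to 0.11) and 0.10 with ARN-509 (-0.01 to 0.20, adjusted p = 0.137). These intervals bound a change of MCL1 more tightly than that of any other tested member. With library totals in place of TMM scaling MCL1 passed with ARN-509, at 0.15 (adjusted p = 0.0391).

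BCL2 was close to the detection limit, with 363 counts summed over the 43 tumors. BCL2 values ran from 0.182 over a median of 0.485 to 1.06 CPM with enzalutamide and from 0.21 over 0.914 to 1.41 CPM with ARN-509. In vehicle tumors the lowest, median and highest values were 0, 1.16 and 2.42 CPM, where the count of 0 in vehicle 11 allows up to 0.637 CPM (3 counts, counting error only). All 13 enzalutamide tumors and 13 of 15 ARN-509 tumors lay below the vehicle median, and both arms lay within the vehicle range. When the filter on low counts was dropped, BCL2 had a log2 fold change of -0.98 ± 0.30 with enzalutamide (adjusted p = 0.0366) and -0.44 ± 0.28 with ARN-509 (adjusted p = 0.288), a difference of -0.55 ± 0.30 that did not pass (adjusted p = 0.224). This call exists only under weaker filters, rests on 77 counts in enzalutamide tumors and 140 in vehicle tumors, and was not repeated with single tumors left out. Summed endothelial markers, which also lay at the detection limit, had medians of 1.94, 1.32 and 4.76 CPM with enzalutamide, ARN-509 and vehicle; their part in the BCL2 values was not tested.

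Of the effectors, BAX was lower with ARN-509 and BAK1 gave no call. BAX ran from 21.0 over a median of 25.9 to 30.4 CPM with enzalutamide, from 16.2 over 20.6 to 35.8 CPM with ARN-509, and from 17.4 over 24.2 to 41.1 CPM with vehicle. All 13 enzalutamide tumors lay above the ARN-509 median, 13 of 15 ARN-509 tumors lay below the vehicle median and 4 lay below the lowest vehicle tumor. BAX had a log2 fold change of -0.26 ± 0.10 with ARN-509 (edgeR adjusted p = 0.0443) and of 0.02 ± 0.10 with enzalutamide (adjusted p = 0.937). Its difference between the drugs was 0.28 ± 0.10, higher with enzalutamide (adjusted p = 0.0396). Both BAX calls stand just inside the threshold. With library totals as the scaling they gave adjusted p of 0.109 and 0.0654, and without the filter on low counts 0.0566 and 0.0504. The ARN-509 call was lost when any 1 of 15 tumors was left out, with adjusted p up to 0.103 (without vehicle 12): ARN-509 1, 2, 3, 6, 7, 9, 10, 12 and 14, and vehicle 4, 7, 8, 9, 12 and 14. The drug difference was lost without any 1 of 13 tumors, with adjusted p up to 0.0692 (without ARN-509 14): enzalutamide 5, 6, 7, 9, 11, 12 and 14, and ARN-509 1, 2, 6, 9, 10 and 14.

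BAK1 values were 10.8, 15.3 and 19.4 CPM (lowest, median, highest) with enzalutamide, 10.3, 15.0 and 20.7 CPM with ARN-509 and 9.67, 17.4 and 24.6 CPM with vehicle. Most drug-treated tumors lay below the vehicle median (11 of 13 and 12 of 15), within the vehicle range. Its log2 fold changes were -0.16 ± 0.11 (adjusted p = 0.357) and -0.19 ± 0.10 (adjusted p = 0.143), and neither passed. Without vehicle 10, the vehicle tumor with the lowest BAK1 level, the ARN-509 value was -0.24 and passed (adjusted p = 0.0455).

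BMF, which is held on the actin cytoskeleton and released when cells detach or are stressed, had the largest change among the tested members. BMF ran from 23.6 over a median of 33.6 to 45.6 CPM with enzalutamide, from 22.8 over 36.7 to 47.8 CPM with ARN-509 and from 17.9 over 27.3 to 40.6 CPM with vehicle. Of 15 ARN-509 tumors 14 lay above the vehicle median and 4 above the highest vehicle tumor, and 11 of 13 enzalutamide tumors lay above the vehicle median. The log2 fold change with ARN-509 was 0.39 ± 0.10 (edgeR adjusted p = 0.00305), a ratio of 1.31. With enzalutamide it was 0.25 ± 0.10 and did not pass (adjusted p = 0.129, unadjusted p = 0.0226). The difference between the drugs was -0.15 (95% interval -0.35 to 0.06, adjusted p = 0.281), so a larger BMF response to ARN-509 than to enzalutamide was not shown. The ARN-509 call held in all 43 fits that left out 1 tumor, with adjusted p of 0.00736 or less.

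BID, which caspase-8 cleaves to link death receptors to the mitochondria, was the only member that passed the threshold with both drugs. BID ran from 35.3 over a median of 41.5 to 49.9 CPM with enzalutamide, from 32.4 over 40.1 to 49.3 CPM with ARN-509 and from 25.5 over 34.0 to 44.3 CPM with vehicle. All 13 enzalutamide tumors and 14 of 15 ARN-509 tumors lay above the vehicle median, while 3 and 2 tumors lay above the highest vehicle tumor. The log2 fold change was 0.26 ± 0.08 with enzalutamide (edgeR adjusted p = 0.0165) and 0.19 ± 0.07 with ARN-509 (adjusted p = 0.0435). These comparisons share the vehicle tumors. The drugs differed by 0.07 (95% interval -0.08 to 0.22, adjusted p = 0.479). The enzalutamide call held in all 43 fits that left out 1 tumor (adjusted p up to 0.0386). The ARN-509 call was lost with enzalutamide 4 put back (adjusted p = 0.0688), without the filter on low counts (0.063) and with only those arms fitted (0.0698). It was also lost without any 1 of 17 tumors, with adjusted p up to 0.0807 (without ARN-509 4): ARN-509 2, 3, 4, 5, 7, 8, 11 and 12, and vehicle 1, 3, 4, 5, 6, 9, 10, 12 and 15.

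BCL2L11, the gene of BIM, a target of FOXO factors that binds all anti-apoptotic members, had lowest, median and highest values of 20.5, 25.3 and 28.3 CPM with enzalutamide, 22.2, 25.7 and 33.0 CPM with ARN-509 and 19.5, 22.8 and 29.5 CPM with vehicle. The arms overlapped widely: 10 of 13 enzalutamide and 14 of 15 ARN-509 tumors lay above the vehicle median, and 1 ARN-509 tumor lay above the highest vehicle tumor. Its log2 fold change was 0.18 ± 0.06 with ARN-509 (edgeR adjusted p = 0.0219) and 0.12 ± 0.06 with enzalutamide (adjusted p = 0.26). The drugs differed by -0.07 (95% interval -0.19 to 0.06). This call held in all 43 fits that left out 1 tumor.

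The last pair of BH3-only genes, both known as p53 targets, gave no call. BBC3 values, the lowest, median and highest, were 2.53, 5.19 and 9.37 CPM with enzalutamide, 2.84, 4.45 and 8.54 CPM with ARN-509 and 2.34, 5.0 and 8.48 CPM with vehicle. Its spread was the widest among tested members, with a biological coefficient of variation of 0.31 against 0.10 to 0.18 for the other 7. Log2 fold changes of 0.11 (95% interval -0.27 to 0.49) and 0.10 (-0.27 to 0.47) leave changes of either sign within reach. PMAIP1 values were 0, 0.564 and 0.972 CPM with enzalutamide, 0, 0.531 and 1.36 CPM with ARN-509 and 0.131, 0.55 and 1.36 CPM with vehicle. The counts of 0 in enzalutamide 3 and ARN-509 7 allow up to 0.36 and 0.552 CPM. A difference in PMAIP1 was not detectable at this depth (250 counts over 43 tumors): without the filter its log2 fold changes were -0.07 ± 0.34 and -0.18 ± 0.33 (adjusted p = 0.962 and 0.757).

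Differences between libraries in how strongly counts depend on GC content moved with several of these results. For each library the slope of log2 counts on the GC content of the gene was computed, relative to the mean of all libraries. It averaged 0.0745 ± 0.106 (SD, n = 13) with enzalutamide, -0.0909 ± 0.111 (n = 15) with ARN-509 and 0.0264 ± 0.144 (n = 15) with vehicle, in log2 units per 10 percentage points of GC. Across 12034 genes, log2 fold changes had a Spearman correlation with GC content of 0.21 for enzalutamide, -0.42 for ARN-509 and 0.62 for the drug difference, as a description over genes that are not independent. Members differ widely in GC content: BBC3 has 69.7%, BAX 58.9%, BAK1 58.8%, BCL2L1 56.9%, BMF 54.8%, BID 49.7%, BCL2L11 45.7% and MCL1 45.1%.

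Within arms, the level of BCL2L1 rose with the GC slope of the library (r = 0.73, rho = 0.74, permutation p = 1e-05, the smallest that 100000 permutations can give, adjusted p = 8e-05 over 8 members, n = 43). Without the 2 tumors with the most extreme slopes r was 0.75, and within enzalutamide, ARN-509 and vehicle tumors it was 0.44, 0.64 and 0.91. For MCL1 the relation was opposite (r = -0.52, rho = -0.51, permutation adjusted p = 0.00188), with -0.77, -0.62 and -0.31 within the 3 arms and -0.52 without the 2 most extreme slopes. BAX had r = 0.52 (rho = 0.48, permutation adjusted p = 0.00224, and 0.42 without the 2 most extreme slopes), at 0.46, 0.23 and 0.77 within arms. BID had r = 0.49 (rho = 0.51, permutation adjusted p = 0.00338, 0.47 without those 2), with 0.07, 0.39 and 0.71 within arms. In all, 6 of 8 members were related to the slope at this threshold, whereas BMF (r = -0.14, rho = -0.13, permutation adjusted p = 0.457) and BCL2L11 (r = -0.12, rho = -0.07, permutation adjusted p = 0.457) did not pass. The slope was computed from these same counts, so genes of high or low GC content tend to follow it by construction. No share over all genes was computed, so the count is not a result about the members. None of the 8 was related to library depth at the same threshold (smallest adjusted p = 0.134, for BAX).

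**Figure D2:**
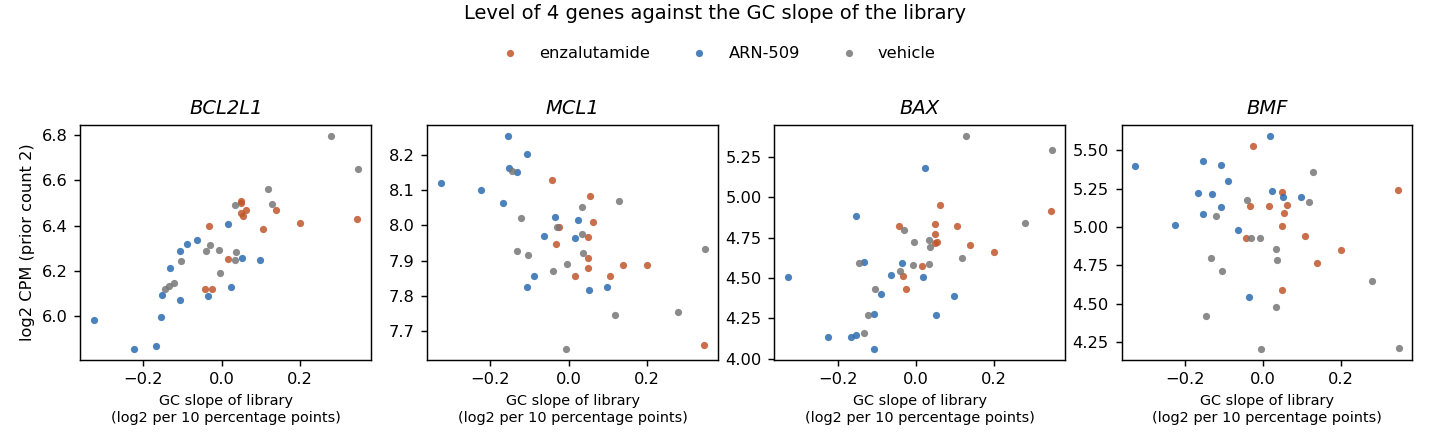
Log2 CPM (vertical axis) of BCL2L1, MCL1, BAX and BMF against the GC slope of the library (horizontal axis, log2 per 10 percentage points of GC), 1 point per tumor, colored by enzalutamide, ARN-509 and vehicle. The points are log2 of CPM plus a small constant, although the axis is labeled prior count 2, the setting behind r. BCL2L1 and BAX lie higher and MCL1 lower in libraries with a higher slope, and BMF shows no such order (r = -0.14 with arm means removed).

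With the GC and length trends of the libraries removed, 2 of the 5 ARN-509 calls remained: BMF at 0.41 (edgeR adjusted p = 0.00118) and BID at 0.22 (adjusted p = 0.00819). That makes 2 of 8 members, beside 3395 of the 12034 genes in that fit, a share not above that of all genes. The enzalutamide call of BID also remained, at 0.23 (adjusted p = 0.0124). Values for the other ARN-509 calls were -0.11 for BCL2L1 (adjusted p = 0.0669), -0.07 for BAX (0.515) and 0.09 for BCL2L11 (0.315). Both drug differences fell below the threshold, with 0.09 for BCL2L1 (adjusted p = 0.256) and 0.05 for BAX (0.766). Thus the higher BMF and BID levels are present with and without the trend, while the calls on BCL2L1, BAX and BCL2L11 are made only where the trend is left in. The source of the trend was not tested.

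**Figure D3:**
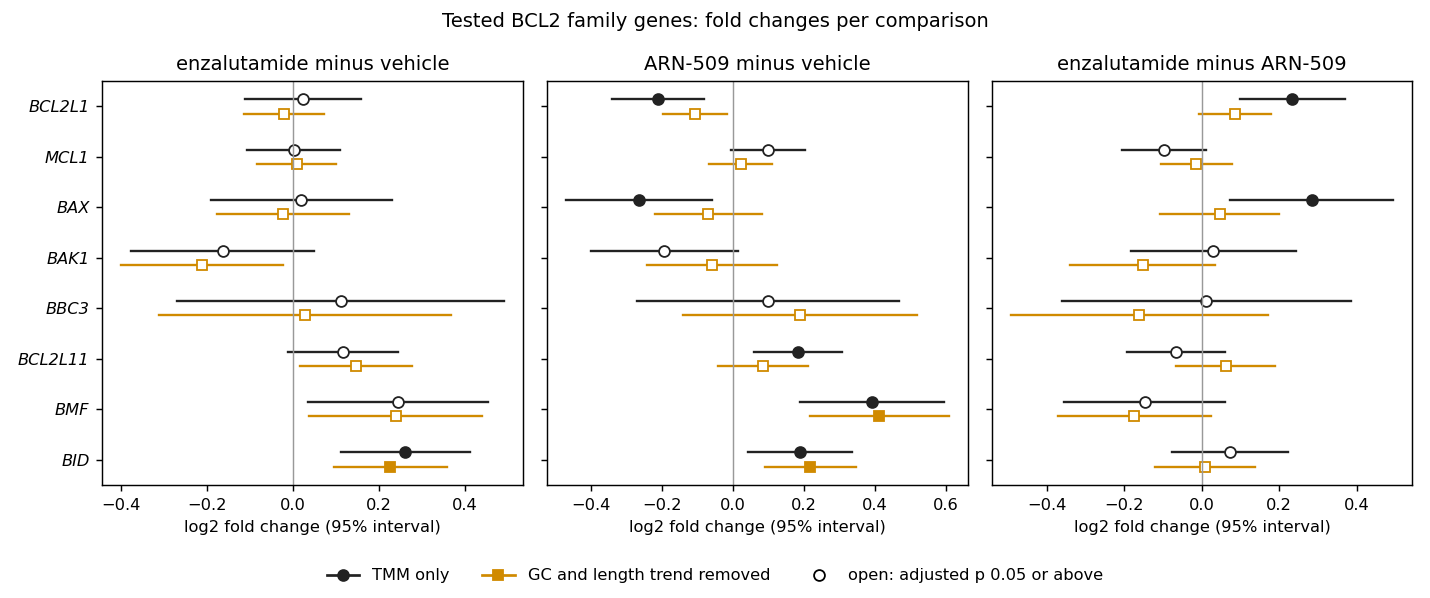
Log2 fold changes (horizontal axis) with 95% intervals of the 8 tested members in 3 comparisons, from TMM-scaled counts (black circles) and after removal of the GC and length trend (orange squares). Filled symbols have an adjusted p below 0.05. In the ARN-509 panel 5 circles are filled but only 2 squares, BMF and BID.

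Members also varied together from tumor to tumor within arms. Of 28 pairs among the 8 tested members, 10 passed after the mean of each arm was removed, 7 positive and 3 negative (permutation within arms, Benjamini-Hochberg over 28 pairs). The share among pairs of other genes was not computed, so counts of passing pairs are not shown to be particular to the family. MCL1 and BBC3 had the strongest relation, r = -0.59 (rho = -0.59, permutation adjusted p = 0.0014, n = 43). It was -0.44, -0.61 and -0.70 within enzalutamide, ARN-509 and vehicle tumors, and -0.58 without the 2 most extreme tumors. The effectors BAX and BAK1 varied together (r = 0.48, rho = 0.51, permutation adjusted p = 0.013), at 0.43, 0.34 and 0.63 within arms and 0.52 without the 2 most extreme tumors. BBC3 and BID had r = 0.52 (rho = 0.48, permutation adjusted p = 0.0108, 0.52 without the 2 most extreme tumors), with 0.45, 0.25 and 0.70 within arms.

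With depth and GC slope regressed out of each gene, 6 pairs passed, 4 positive and 2 negative, and they were partly others. MCL1 and BBC3 (r = -0.48, permutation adjusted p = 0.00905) and BAX and BAK1 (r = 0.41, adjusted p = 0.0463) were among them. BBC3 and BID no longer passed (r = 0.39, permutation adjusted p = 0.0601). MCL1 with BAX passed only then, at r = 0.59 (rho = 0.58, permutation adjusted p = 0.00224), beside 0.13 before. It was 0.53, 0.55 and 0.67 within enzalutamide, ARN-509 and vehicle tumors and 0.57 without the 2 most extreme tumors. MCL1 with BAK1 also passed then, at 0.54 (rho = 0.58, permutation adjusted p = 0.00364), beside 0.18 before, with 0.52, 0.64 and 0.46 within arms. The pair BCL2L1 and MCL1, an anti-apoptotic pair, had r = -0.45 before (rho = -0.44, permutation adjusted p = 0.0152) and -0.13 after. These relations describe levels across tumors that share libraries, and the remaining values are in the matrix of gene pairs.

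**Figure D4:**
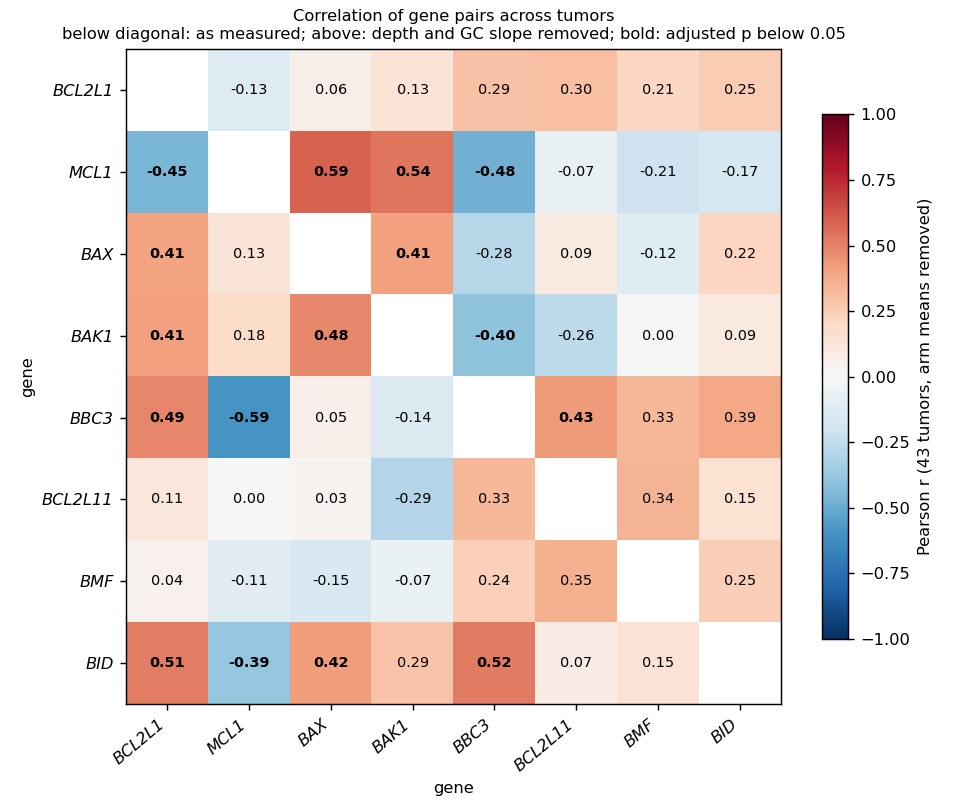
Pearson r of log2 CPM for each pair of the 8 tested members over 43 tumors with arm means removed; rows and columns are genes. Values below the diagonal are as measured, values above it have library depth and GC slope regressed out, and bold marks an adjusted p below 0.05. MCL1 with BBC3 is negative on both sides (-0.59 and -0.48), and MCL1 with BAX is 0.13 below and 0.59 above.

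The gene whose level was most alike across the 43 tumors, by Pearson r of log2 CPM with arm means removed, was looked up for tested members among all tested genes whose mean log2 CPM reached 1. BAX was most like C17orf61 (r = 0.87, rho = 0.82) and MCL1 most like C6orf228 (0.82, rho = 0.79). BCL2L1 was most like ELOVL1, a fatty acid elongase (0.81, rho = 0.78). BBC3 paired with CCDC86 (0.78, rho = 0.80), BAK1 with PGD of the pentose phosphate pathway (0.75, rho = 0.70), BMF with SMAD3, a transducer of TGF-beta signals (0.74, rho = 0.66), and BCL2L11 with SYTL2 (0.63, rho = 0.54). These are the highest of a great many values and are given without a test.

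Over 7 lists of genes around the family, 5 of 81 tested genes (6.17%) were called with enzalutamide and 20 of 81 (24.7%) with ARN-509, below the 10.8% and 30.8% of all tested genes. The counts that follow are therefore descriptions of single genes and not results about the lists.

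Of 14 other BCL2 family genes, 8 could be tested, and 1 was called with each drug in the fit with the trend left in. BIK, a BH3-only gene of the endoplasmic reticulum, rose with enzalutamide, at 7.11 ± 1.45 CPM with enzalutamide and 5.15 ± 1.98 CPM with vehicle (SD; log2 fold change 0.44 ± 0.15, edgeR adjusted p = 0.0418). That call held in 28 of 43 fits without 1 tumor and stood at 0.38 once the GC trend was taken out (adjusted p = 0.0574). In that fit BIK was instead called with ARN-509 (0.41, adjusted p = 0.024), beside 0.23 with the trend left in, so a response to 1 drug only was not shown. BCL2L12 fell with ARN-509, at 3.01 ± 0.735 CPM beside 4.07 ± 1.48 CPM with vehicle (-0.40 ± 0.15, adjusted p = 0.0349), and was not called with the trend removed (adjusted p = 0.164). BCL2L2, whose product BCL-W is anti-apoptotic, had 72.0 ± 7.25, 70.8 ± 3.86 and 71.6 ± 4.94 CPM in enzalutamide, ARN-509 and vehicle tumors. BAD, a BH3-only gene controlled by survival kinases, had 175 ± 27.9, 142 ± 25.8 and 174 ± 68.1 CPM in the same order. BOK, BCL2L13, BCL2L10 and BNIP3 also gave no call. BCL2A1, HRK, BNIP3L and BCL2L2-PABPN1 never exceeded 2 counts in a tumor, and BCL2L14 and BCL2L15 never exceeded 13 and 23.

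Downstream of the mitochondria, 1 of 16 effector genes rose with enzalutamide and 2 of 16 fell with ARN-509. CASP9, the initiator caspase of the apoptosome, had 15.7 ± 2.3 CPM with enzalutamide and 13 ± 2.45 CPM with vehicle (0.26 ± 0.09, edgeR adjusted p = 0.0454), a call that held in 26 of 43 fits without 1 tumor and was lost with the trend removed (0.26, adjusted p = 0.0503). In that fit CYCS, cytochrome c, was called lower with ARN-509 (-0.30, adjusted p = 0.00393). AIFM1, the apoptosis-inducing factor of the mitochondria, had 57.6 ± 3.97 CPM with ARN-509 and 72.3 ± 13.7 CPM with vehicle (-0.33 ± 0.07, adjusted p = 0.000214), and VDAC1, an outer membrane channel, was at -0.19 ± 0.07 (adjusted p = 0.0356). The list's median log2 fold change was -0.03 and -0.06, beside 0.00 over all tested genes in both comparisons. Of 6 inhibitor of apoptosis genes tested, none passed with enzalutamide, while BIRC2 rose (0.20 ± 0.07, adjusted p = 0.0329) and BIRC5, survivin, which follows cell division, fell with ARN-509 (-0.47 ± 0.17, adjusted p = 0.0285). With the trend removed BIRC2 was at 0.03 (adjusted p = 0.637) and BIRC5 at -0.41 (adjusted p = 0.054). XIAP, of the same list, was called only in that fit. Its ARN-509 value was -0.24 (adjusted p = 0.0159), beside -0.02 with the trend left in. The XIAP difference of enzalutamide minus ARN-509 was 0.34 (adjusted p = 0.0145), beside 0.00 with the trend left in. BIRC5 had 51.7 ± 14.0 CPM with ARN-509 and 71.5 ± 34.6 CPM with vehicle, and without vehicle 8 its adjusted p was 0.0915. Of 9 death receptor pathway genes tested, 1 rose with ARN-509, CASP8 (0.19 ± 0.07, adjusted p = 0.03), and none passed with enzalutamide. With the trend removed CASP8 was not called (0.11, adjusted p = 0.2), while FAS, a death receptor, was called lower with ARN-509 (-0.35, adjusted p = 0.00782).

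Among 12 regulators of BH3-only genes, FOXO3 rose with both drugs. FOXO3, a transcription factor known to act on BCL2L11, had 208 ± 24.7 CPM with enzalutamide, 237 ± 27.5 CPM with ARN-509 and 175 ± 29 CPM with vehicle. It rose with enzalutamide (0.24 ± 0.07, edgeR adjusted p = 0.023) and with ARN-509 (0.43 ± 0.07, adjusted p = 1.2e-05), also with the trend removed (0.30 and 0.35). FOXO1 had 6.71 ± 1.49, 7.12 ± 1.44 and 4.87 ± 1.89 CPM and rose with ARN-509 (0.50 ± 0.15, adjusted p = 0.0095). TRIB3 and ATF4 of the integrated stress response and the cell cycle factor E2F1 fell with ARN-509, at -0.56 ± 0.12, -0.34 ± 0.08 and -0.59 ± 0.13 (adjusted p = 0.000399, 0.0026 and 0.000839), also with the trend removed (-0.42, -0.19 and -0.44). In all 1 of 12 genes of this list rose and none fell with enzalutamide, and 2 rose and 3 fell with ARN-509. With the trend removed, these 4 genes were also called with enzalutamide, at 0.48 for FOXO1, -0.35 for TRIB3, -0.20 for ATF4 and -0.32 for E2F1 (adjusted p = 0.00767, 0.00761, 0.014 and 0.0385).

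Of 19 p53 pathway genes tested, 1 rose and 1 fell with enzalutamide, and 5 rose and 2 fell with ARN-509. BTG2, an antiproliferative gene, rose with both drugs (0.48 ± 0.09 and 0.36 ± 0.09, edgeR adjusted p = 0.000134 and 0.00159), at 117 ± 11.7, 108 ± 14.8 and 83.7 ± 18.7 CPM in enzalutamide, ARN-509 and vehicle tumors. PERP, of the cell junctions, fell with both (-0.27 ± 0.07 and -0.23 ± 0.06, adjusted p = 0.00367 and 0.00573). TP53INP1, which acts in autophagy and cell death, had 304 ± 63.8, 432 ± 81.8 and 260 ± 96.4 CPM; it rose with ARN-509 (0.73 ± 0.14, adjusted p = 0.000109) and differed between the drugs (-0.50 ± 0.14, adjusted p = 0.0111). With the trend removed TP53INP1 was called with enzalutamide as well (0.33, adjusted p = 0.0275) and its drug difference was not (-0.25, adjusted p = 0.149). POLK, ZMAT3 and RRM2B also rose with ARN-509 and TP53I3 fell. With the trend removed POLK, ZMAT3 and RRM2B were not called, at 0.15, 0.27 and 0.06 (adjusted p = 0.122, 0.0574 and 0.351). POLK, ZMAT3 and RRM2B are named after their values were seen.

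Among 11 tested genes of a list drawn up for the turnover of MCL1 and BIM protein, none passed with enzalutamide. FBXW7, a ubiquitin ligase subunit that targets MCL1, rose with ARN-509 (0.23 ± 0.07, edgeR adjusted p = 0.0148), and MAPK3, the kinase ERK1 that marks BIM for degradation, fell (-0.29 ± 0.07, adjusted p = 0.0034). MAPK3 had 27.2 ± 1.81, 22.6 ± 2.67 and 27.6 ± 5.43 CPM in enzalutamide, ARN-509 and vehicle tumors. With the trend removed MAPK3 kept its call (-0.16, adjusted p = 0.0221) and FBXW7 did not (0.13, adjusted p = 0.106). In that fit DYNLL2 was called lower with ARN-509 (-0.24, adjusted p = 0.00215), beside -0.14 with the trend left in (adjusted p = 0.0599). Protein levels were not measured. Between the drugs, calls over the 7 lists numbered 8 in each direction among 81 tested genes. That is 19.8%, below the 26.8% of all tested genes, so it is not a result about the lists.

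**Figure D5:**
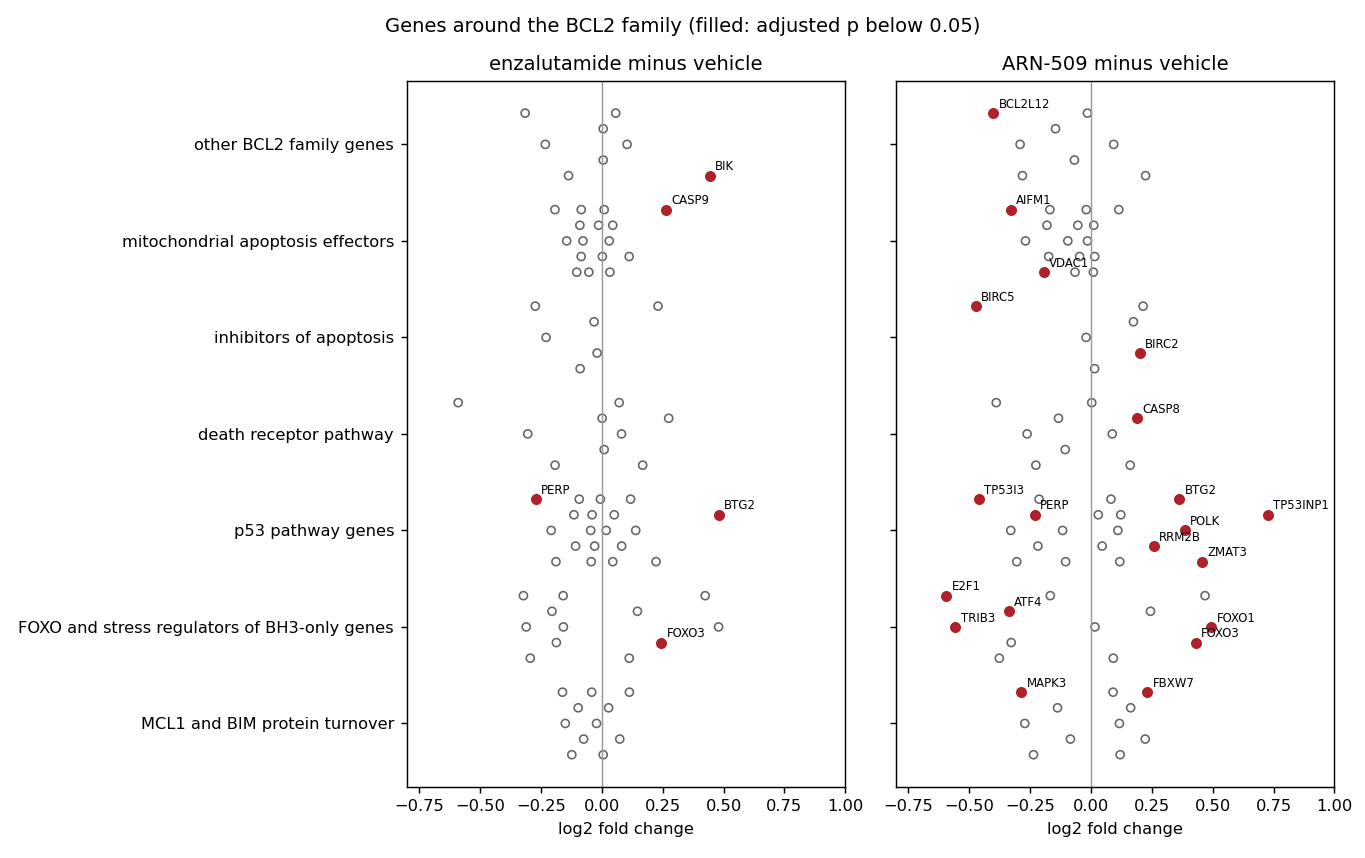
Log2 fold changes (horizontal axis) of the tested genes of 7 lists around the BCL2 family (rows) for enzalutamide and for ARN-509 against vehicle, 1 point per gene with vertical offsets only to separate points. Filled points have an adjusted p below 0.05 and are named. Filled points are few in both panels, with the p53 pathway holding 7 with ARN-509 and 2 with enzalutamide.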

How the data were processed

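RNA of 44 tumors had been sequenced with the Illumina TruSeq RNA v2 kit, per the labels' protocols, which does not mark strand, so reads of overlapping or antisense genes cannot be told apart. Values are raw counts per gene symbol in 1 table that the authors deposited. HTSeq 0.6.1, Picard 1.77, TopHat2 2.1.0, bcl2fastq 1.8.4 and the hg19 build are named in the submitters' processing notes. How mouse reads were handled, and the annotation, was not given in the sources used here. Totals ranged over 3377450 to 30125004 counts in the 43 libraries fitted; 2790 genes had no count, and no 2 libraries were identical.

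The members and gene lists were chosen with earlier results of these data known. Genes kept by filterByExpr (13520) were fitted with edgeR 4.0.16 (R 4.3.3; TMM, robust quasi-likelihood, arm as the only term), with Benjamini-Hochberg adjustment over all of them and a threshold of 0.05. Fold changes are log2; p-values measure the spread between separate tumors. CPM are TMM-normalised. GC content and length came from GENCODE v29 (GRCh38), matched by symbol for 89% of tested genes; smooth trends (5 degrees of freedom) were removed by offsets. Pairs used log2 CPM with prior count 2, arm means removed, and 100000 permutations within arms (Python 3.11.15). Alternatives included limma 3.58.1 and DESeq2 1.42.0. Scripts were tested on simulated data with planted 1.5-fold and 2-fold changes, of which 82 to 84% and 94 to 98% were recovered. Changes as small as those of the tested members were not simulated. Named genes were all members, every other BCL2 family gene, per list up to 4 genes with the smallest p under ARN-509 and 2 more under enzalutamide, the gene most alike each member, and 3 check genes; a few of these are not reported here. No coordinates of hg19 were used; promoter windows are RefSeq on GRCh38.p14 for 9 of 10 members.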

Additional observations from a re-analysis of the deposited data

Results flagged for a closer look

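BCL2L1 and BAX were the members whose response differed between the drugs by a test of the difference itself. BCL2L1 was higher with enzalutamide than with ARN-509 by 0.23 on the log2 scale (edgeR adjusted p = 0.0113), and 11 of 13 enzalutamide tumors lay above the ARN-509 median. BAX was higher with enzalutamide by 0.28 (adjusted p = 0.0396), and all 13 enzalutamide tumors lay above the ARN-509 median. With the GC and length trend removed the differences were 0.09 and 0.05, and neither passed (adjusted p = 0.256 and 0.766).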

How the results depend on the processing

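For ARN-509 against vehicle, 5 members were called in the fit as reported, 3 with all 44 libraries, without a filter on low counts or with only the 2 arms compared, 2 with the GC and length trend removed (also with all 44 libraries) and 0 against a minimum of 1.2-fold. Leaving out 1 tumor gave 3 to 5, with 3 without ARN-509 2, 3, 7 or 12 or vehicle 4, 9 or 12. For enzalutamide against vehicle 1 member was called, 2 without a filter, with at least 1 CPM in 13 libraries or by limma voom, and 0 against 1.2-fold; leaving out 1 tumor gave 1 to 1. Between the drugs 2 were called, 1 with all 44 libraries, library totals or no filter, and 0 against 1.2-fold or with the trend removed (also with all 44 libraries); leaving out 1 tumor gave 1 to 2. Over all genes, 1455, 4166 and 3623 were called. Limma voom called 2547 with enzalutamide and 5707 between the drugs, and against 1.2-fold 393, 634 and 0 remained. With the trend removed 1856, 3395 and 555 of 12034 genes were called (354 between the drugs with all 44 libraries). Leaving out 1 tumor gave 1145 to 1794, 3261 to 5045 and 2680 to 4269. Library totals turned the split of higher to lower calls to 838 and 600, 2713 and 1466, and 1202 and 2263, from 689 and 766, 1988 and 2178, and 1647 and 1976. Pairs numbered 10, and 6 with depth and GC slope regressed out.

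Where either fit passed, direction turned for 2 listed genes with the trend removed: APAF1 to -0.15 with ARN-509 (also with all 44 libraries) and to 0.0478 between the drugs (0.0493 with all 44 libraries), and USP9X to 0.00534 (0.20) between the drugs. Of 9914 values of named genes 9435 kept their call, 7237 of them in fits that left out 1 tumor. In the other alternatives 2198 kept it, 91 gained a call, 137 lost it and 6 turned direction. A value called in neither fit counts as kept. Tumors of 2 arms with the same replicate number had correlations from -0.32 to 0.59, with arm means removed. Their medians were -0.017 for enzalutamide with vehicle, 0.052 for ARN-509 with vehicle and -0.0037 for the 2 drugs. Replicate numbers were therefore not used as pairs, and a replicate block gave 1, 5 and 2 members. The cause of these changes was not tested. Depth limits what can be said of BCL2 and PMAIP1. The removal of the trend with all 44 libraries and the fit without vehicle 8 and vehicle 10 (1, 5 and 2 members) were chosen after seeing the data.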

Other observations

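Regulators of the family also differed between the drugs. GSK3B and USP9X, a kinase that marks MCL1 for degradation and a deubiquitinase that spares it, were lower with enzalutamide than with ARN-509, by a log2 difference of -0.35 ± 0.09 and -0.32 ± 0.09 (edgeR adjusted p = 0.008 and 0.00773). GSK3B had 88.1 ± 15.0 CPM with enzalutamide and 112 ± 19.3 CPM with ARN-509, and USP9X had 196 ± 31.4 and 246 ± 35.2 CPM in the same order. With the GC and length trend removed these values were -0.09 and 0.01, and neither passed (adjusted p = 0.26 and 0.961).

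In the shallow library enzalutamide 4, BCL2L1 took 26 of 80142 counts, or 324 CPM, beside at most 110 CPM in the other 43 tumors. BCL2 and BCL2L11 had 2 counts each and MCL1 had 4.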
